A study of Homo sapiens with 16 samples.

Results

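LSM4 and the other Lsm ring genes, LSM1 to LSM8, are described here in MDA-MB-231 cells, a human triple-negative breast cancer line, by the mRNA fragments that ribosomes protect from nuclease (RPF, called footprints below) and by total RNA. The members were found by gene symbol, 8 of the 26485 genes listed, and all 8 had counts in both assays. LSM4 was chosen by its measured values, namely footprints far above what its total RNA predicts, so that excess is given as a description with no test. Each library was made from MDA-MB-231 cells carrying CRISPR interference (CRISPRi, in which a guide brings a repressor to a gene) and an expression construct. The 4 conditions were the tRNAIleGAU guide with the tRNAIleUAU construct (double modulation), the tRNAIleGAU guide with the control construct (knockdown alone), the eGFP guide with the tRNAIleUAU construct (overexpression alone), and the eGFP guide with the control construct (control). All of them share the CRISPRi system, a construct, culture in DMEM with serum and lysis in cycloheximide, and the labels name the source as a xenograft cell line. Each condition was measured by both assays in 2 libraries per group, which makes 16. The question stated for the series is whether changing these isoleucine tRNAs alters ribosome occupancy of transcripts with many isoleucine codons.

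Lsm proteins are small RNA-binding proteins that fold into rings of distinct subunits around the 3′ end of an RNA. LSM2 to LSM7 are shared by both rings. With LSM1 they form the cytoplasmic ring, which binds deadenylated mRNA together with PATL1 and promotes removal of the cap, and with LSM8 they form the nuclear ring, which binds the uridine-rich 3′ end of U6 snRNA and takes part in pre-mRNA splicing. LSM4 differs from most subunits by a tail rich in arginine and glycine, which takes part in the assembly of P-bodies, the cytoplasmic granules that hold decapping factors.

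Depth, as the total count on genes, was 358340 to 938909 in footprint libraries and 2512247 to 5446599 in total RNA libraries. Values are given as CPM, a gene's count scaled to the same library total on genes. The cells' identity was checked in total RNA. The 8 genes listed as high in this line were all above 10 CPM, summing to 5561 to 5990 CPM per library (VIM at 1669 to 1735). Of the 8 luminal genes listed as low, ESR1, PGR, FOXA1 and CDH1 had highest values of 0.184, 0.936, 0.367 and 1.19 CPM. GATA3 reached at most 6.32 CPM. The other 3 averaged at least 10 CPM, with ERBB2 at 29.8 to 58.0, EPCAM at 12.9 to 21.9 and KRT19 at 38.3 to 119 CPM. The luminal list summed to 86.0 to 196 CPM per library. Of the immune genes, CD3E was at 0 in every library, PTPRC reached at most 1.09 CPM, CD14 at most 1.82 CPM and CD68 lay at 6.81 to 31.8 CPM, and the 4 endothelial genes summed to 7.57 to 14.3 CPM with CDH5 at 0. The tRNAs themselves were not analysed here, so the labels of guide and construct rest on the submitters. Nothing in the labels says whether the numbered replicates came from separate cultures, so the p-values reflect the spread between these samples alone, and it may be technical.

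LSM4 (chr19:18306236-18323076, GRCh38.p14) was far more abundant in the footprint libraries than in the total RNA libraries in every condition. Its footprints reached 2097 and 3497 CPM in the double modulation, 3271 and 4168 CPM in the knockdown alone, 3232 and 3562 CPM in the overexpression alone, and 2337 and 2860 CPM in the control. Its total RNA was 99.9 and 27.5 CPM in the double modulation, 57.6 and 46.6 CPM in the knockdown alone, 41.0 and 55.1 CPM in the overexpression alone, and 50.6 and 54.2 CPM in the control (replicate 1 first throughout). The lowest footprint value stood above the highest total RNA value by more than an order of magnitude. In footprints both libraries of the knockdown alone and of the overexpression alone lay above both of the control. With 2 libraries per group and no share over all genes computed for such a separation, nothing is drawn from it. The double modulation overlapped all of the others, and in total RNA all conditions overlapped. Over 8 libraries per assay the means were 3128 ± 676 CPM in footprints and 54.0 ± 20.9 CPM in total RNA (SD). LSM4 took 87.3 to 93.6% of the counts of the 8 members in the footprint libraries, against 12.8 to 32.7% in the total RNA libraries. LSM8, the subunit particular to the nuclear ring, took 0.461 to 2.21% of the members' footprint counts and 21.4 to 42.8% of their total RNA counts.

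**Figure D1:**
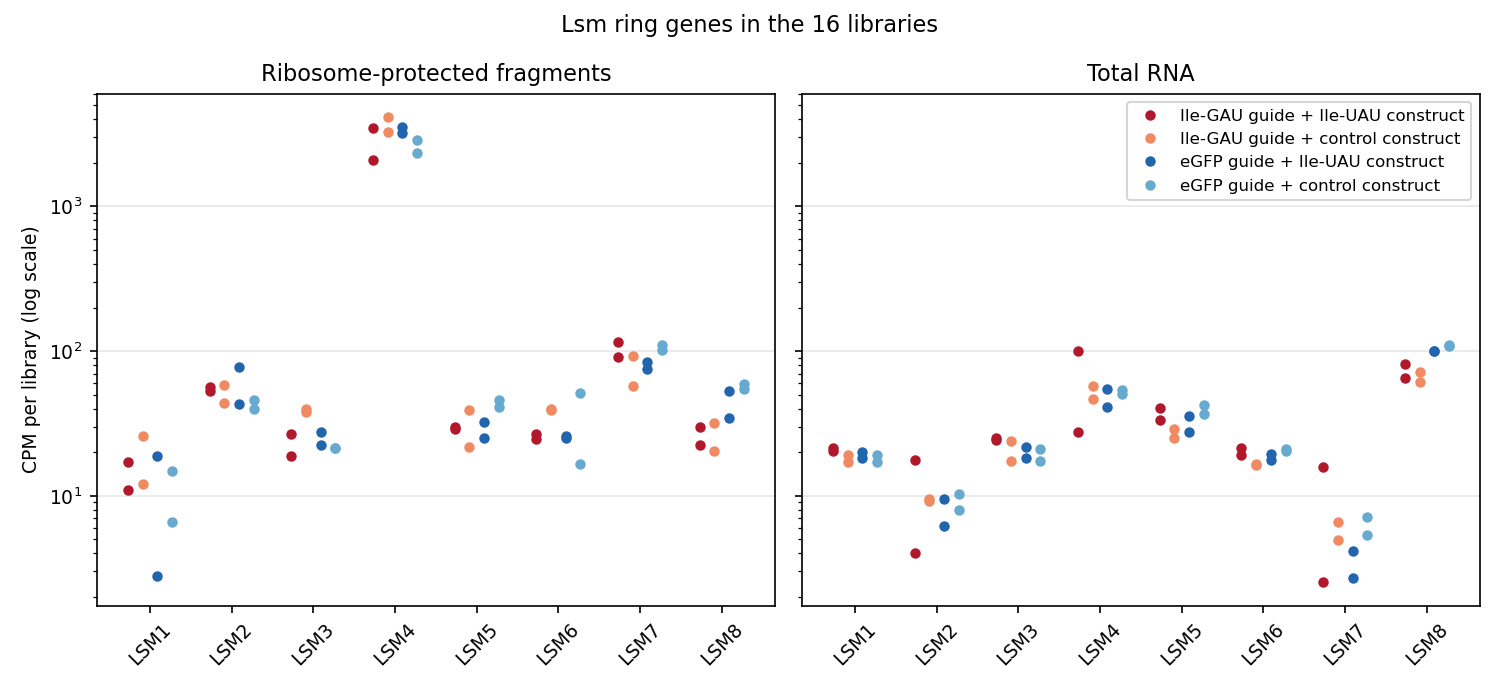
CPM of LSM1 to LSM8 in each library (log axis), footprints at left and total RNA at right, with 1 point per library and colours for the 4 conditions. LSM4 lies at 2097 CPM or more in every footprint library and at 99.9 CPM or less in every total RNA library. Values are not divided by transcript length, so levels of different genes are not comparable.

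The excess of footprints over total RNA was expressed as the log2 ratio of the mean CPM values, a number in which the length of a gene cancels except for the share of its transcript that is coding. For LSM4 it was 5.86, a ratio of 57.9, and by condition it was 5.46 in the double modulation, 6.16 in the knockdown alone, 6.14 in the overexpression alone and 5.63 in the control. Among 7391 genes with a mean of at least 10 CPM in both assays, the median ratio was -0.16, and the 10th and 90th percentiles were -1.87 and 1.86. LSM4 was in place 5 from the top. It stayed in place 4 or 5 with any 1 of the 16 libraries left out, and the lower limit of 1 CPM put it in place 21 of 10968 genes.

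The other subunits had ratios from -1.20 to 3.89. LSM7 and LSM2 had log2 ratios of 3.89 and 2.49. Their total RNA averaged 6.14 and 9.31 CPM, under the limit of 10 CPM, so they have no place in that ranking. Among the 10968 genes of the lower limit LSM7 stood in place 131 and LSM2 in place 841. LSM6 at 0.71 (place 2055 of 7391), LSM3 at 0.35 (2682), LSM5 at -0.03 (3428) and LSM1 at -0.49 (4407) lay between the 10th and 90th percentiles. LSM8 had the lowest ratio of the 8, at -1.20, in place 5783. Footprints of the members other than LSM4 rested on few counts, with 1 to 22 per library for LSM1 and 27 to 86 for LSM7, whereas LSM4 had 1158 to 3450. Total RNA counts were also few for LSM7 (7 to 86 per library) and LSM2 (16 to 97). Their highest counts came from replicate 1 of the double modulation.

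**Figure D2:**
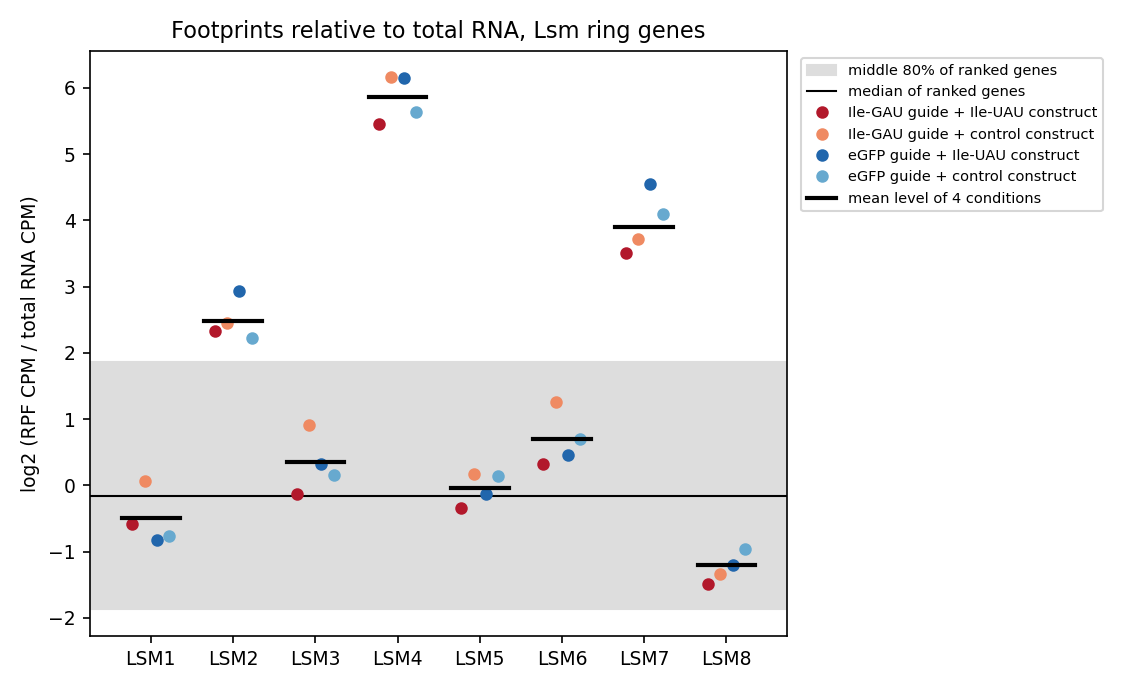
Log2 ratio of footprint CPM to total RNA CPM for the 8 Lsm ring genes, with a point per condition, a black bar for the ratio of the mean levels, a line for the median of 7391 genes (-0.16) and a grey band from their 10th to their 90th percentile (-1.87 to 1.86). LSM4, LSM7 and LSM2 lie above the band in every condition and the other 5 genes lie within it.

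A ratio this high was shared by few genes, and those above or beside LSM4 were mostly histones. The 4 genes ahead of it were the histone genes HIST1H3B (6.92), HIST1H1E (6.50) and HIST1H2BJ (5.94) and IGFBP7 (6.29), which encodes a secreted protein that binds insulin-like growth factors. The 5 genes nearest to LSM4 by their ratios over the 4 conditions were HIST1H2BJ, S100A11 (a calcium-binding protein), IGFBP7, HIST1H1C and HIST1H2BO, at Euclidean distances of 0.733 to 1.48. Histone genes have near-identical copies, and their values are uncertain because reads that align to several places carry no gene count.

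The Sm proteins, relatives of the Lsm proteins that form the ring on the other spliceosomal snRNAs, also had unequal ratios, given here as a description. SNRPB had 619 CPM in footprints and 30.0 CPM in total RNA (log2 ratio 4.37, place 19). SNRPD2 had 322 CPM in footprints and 18.7 CPM in total RNA (4.11, place 30). SNRPD3 (0.18), SNRPF (-0.88) and SNRPD1 (-1.26) were near or below the median. SNRPE and SNRPG averaged 0.349 and 0.196 CPM in footprints beside 30.1 and 8.58 CPM in total RNA, too low for the ranking. Over the 6 lists of partner genes, the median ratio was 0.18 for the Sm ring (5 genes with a ratio), 0.15 for other Lsm-domain proteins (6), -0.77 for decapping and 5′ decay (11), 0.03 for deadenylation (16), 0.13 for U6 and tri-snRNP proteins (22) and 0.70 for snRNP assembly (8). Among the 6 genes of the Lsm-domain list with at least 10 CPM in both assays, the highest was NAA38, an auxiliary subunit of an N-terminal acetyltransferase, at 2.59, and the lowest was the P-body protein LSM14A, at -1.96.

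Features of annotation and alignment that can touch these counts were looked up for the members. A long noncoding RNA gene, LOC105372300, lies inside the span of LSM4 (chr19:18315669-18321997, GRCh38.p14) and is not used here as a separate gene. Only whole gene spans were compared, not exons, and whether the counting used strand is not stated. Whether reads from it were counted to LSM4 is therefore not known. LSM1 (chr8:38163321-38176730) overlaps the end of a long noncoding RNA gene, LOC105379382 (38156339-38163394), and spans a U6 pseudogene, RNU6-323P. Whether their reads were counted to LSM1 is not known either. RefSeq names 0 pseudogenes of LSM4, LSM5, LSM7 and LSM8, 2 each of LSM1, LSM2 and LSM6, and 5 of LSM3. Of all alignments that HTSeq saw, 97.0 to 98.8% in the footprint libraries and 97.2 to 98.1% in the total RNA libraries went to more than 1 place. Their part in the ratios was not tested.

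The total RNA values of LSM4, LSM2 and LSM7 differed between the replicates of the double modulation. LSM4 was at 99.9 CPM in replicate 1 and 27.5 CPM in replicate 2, a ratio of 3.63. LSM2 (chr6:31797396-31806966) was at 17.8 and 4.04 CPM there, against 6.18 to 10.3 CPM in the other 6 total RNA libraries. LSM7 (chr19:2321521-2328586) was at 15.8 and 2.52 CPM, against 2.71 to 7.16 CPM in the others. Replicate 1 held the highest and replicate 2 the lowest total RNA value of each of these 3 genes. In replicate 2 the values of LSM7 and LSM2 rested on 10 and 16 counts.

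The difference between these replicates was larger for genes with a larger footprint excess. With 0.5 CPM added, the log2 difference of replicate 1 over replicate 2 was 2.43 for LSM7, 2.01 for LSM2 and 1.84 for LSM4, and 97.8% of 7340 genes lay below LSM4. It was 0.27 for LSM5, 0.16 for LSM6, -0.05 for LSM3, -0.07 for LSM1 and -0.31 for LSM8. Among the 734 genes with the highest ratio in the other 3 conditions the median difference was 0.80 (quartiles 0.39 and 1.39), and among the 734 with the lowest it was -0.18. Across the 7340 genes, which are not independent replicates, the ratio and the replicate difference correlated at r = 0.58 in the double modulation, 0.27 in the knockdown alone, -0.39 in the overexpression alone and 0.06 in the control. In footprints the same correlation ran from -0.03 to 0.06. The part of this difference between libraries in the total RNA results of LSM4 is given below by leaving either library out.

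**Figure D3:**
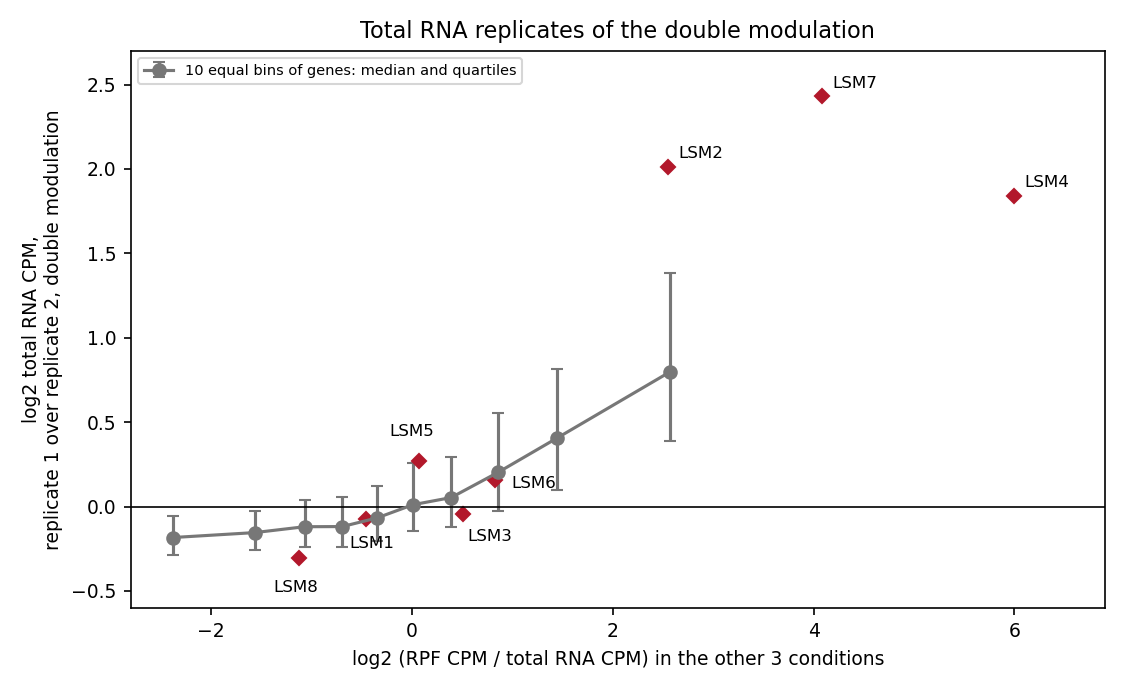
Log2 difference in total RNA between replicates 1 and 2 of the double modulation (vertical axis) against the log2 ratio of footprints to total RNA in the other 3 conditions (horizontal axis). Grey points give the median and quartiles of 10 equal bins of 7340 genes, and red diamonds the Lsm ring genes. LSM7, LSM2 and LSM4 lie at 2.43, 2.01 and 1.84, and the other 5 genes lie between -0.31 and 0.27.

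LSM4 footprints were highest on average in the knockdown alone (3720 ± 635 CPM), followed by the overexpression alone (3397 ± 234 CPM), the double modulation (2797 ± 990.2 CPM) and the control (2599 ± 369 CPM; SD, n = 2 each). Neighbours in that order differed by less than the larger of their SDs. LSM4 total RNA was 63.7 ± 51.2 CPM in the double modulation, 52.1 ± 7.78 CPM in the knockdown alone, 48.0 ± 9.99 CPM in the overexpression alone and 52.4 ± 2.56 CPM in the control. No neighbours in the order of the total RNA means differed beyond their spread either.

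On average, the tRNAIleUAU construct went with lower LSM4 footprints beside the tRNAIleGAU guide and with higher ones beside the eGFP guide. Beside the tRNAIleGAU guide the libraries overlapped (2097 and 3497 CPM with the construct, 3271 and 4168 CPM with the control construct). From the means of log2 CPM, the construct's difference was -0.45 with the tRNAIleGAU guide (0.734-fold) and 0.39 with the eGFP guide (1.31-fold). By edgeR's quasi-likelihood test with Benjamini-Hochberg adjustment over 8143 genes, the difference between these differences (the interaction) was -0.80 ± 0.15 (log2, SE, adjusted p = 0.0023). LSM4 was the 1 of the 8 members called, where 0.0614% of all genes passed. LSM7 was at 0.84 ± 0.30 there (adjusted p = 0.665). A test of LSM4 alone, over the 36 arrangements of the construct labels within each guide, gave -0.84 with an exact two-sided permutation p of 0.111, and the smallest p that design allows is 0.0556.

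The replicates of LSM4 varied more than the model's error allows for. Its within-group SD in footprints was 0.31 on the log2 scale, the highest of the 99 genes averaging at least 1000 CPM, whose median was 0.0931. Counting error alone is 1.70 to 2.94% at its depth. The standard error of the interaction from its own spread was 0.439, against 0.15 from the model, which borrows its spread from genes of similar level. The library numbered 2 was higher than the library numbered 1 in all 4 conditions. The call was lost with robust estimation of the spread in edgeR (adjusted p = 0.957) and by DESeq2 (-0.80, adjusted p = 1). It was also lost without replicate 1 of the control (-0.66), replicate 2 of the overexpression alone (-0.73) or replicate 1 of the double modulation (-0.47).

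With all libraries kept, LSM4 did not pass in the other comparisons. By guide, averaged over both constructs, its footprints differed by 0.10 ± 0.08 (adjusted p = 0.603) and its total RNA by 0.19 ± 0.31 (0.863). By construct, averaged over both guides, they differed by -0.02 ± 0.08 (0.985) and 0.09 ± 0.31 (1). In the double modulation against the control, they differed by 0.08 ± 0.11 (0.833) and 0.28 ± 0.43 (0.922). The interaction in total RNA was 0.39 ± 0.62 (0.998). The total RNA values turned with the unlike replicates of the double modulation. Fits without either one leave 1 library in that group, so only the size of the difference is given. In every total RNA comparison LSM4 passed without replicate 1 or without replicate 2. The double modulation against the control passed in both fits, in opposite directions, so passing or not depended on single libraries. Without replicate 2 the double modulation differed from the control by 0.88, and without replicate 1 by -0.90. The interaction was 1.00 without replicate 2 and -0.79 without replicate 1. By guide the total RNA difference was 0.48 without replicate 2 and -0.42 without replicate 1. By construct it was 0.41 without replicate 2 and -0.49 without replicate 1. The footprint differences turned with the same condition's footprint libraries. Without replicate 1 the guide difference was 0.27 and the double modulation's 0.42, and without replicate 2 they were -0.11 and -0.34. Both passed without replicate 1 and neither did without replicate 2.

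**Figure D4:**
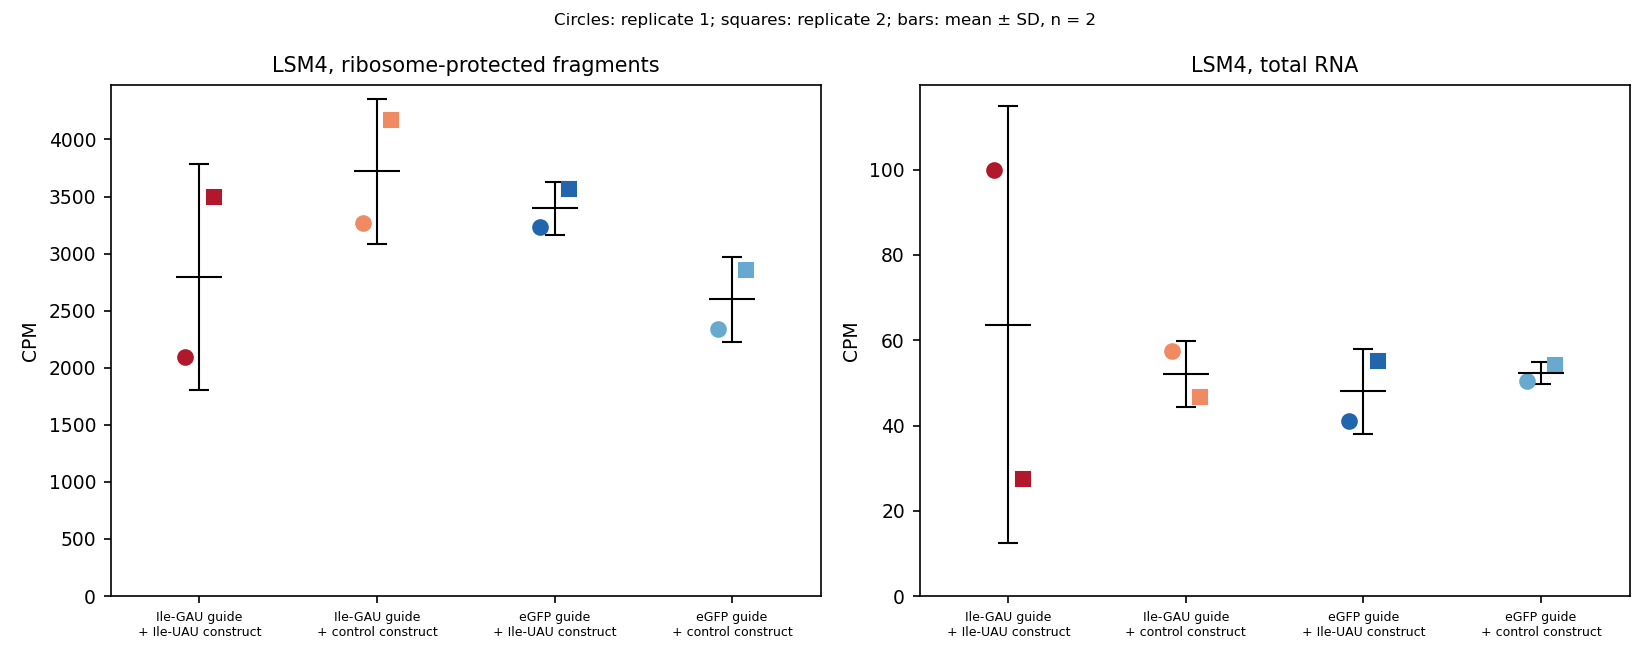
LSM4 CPM by condition, footprints at left and total RNA at right. Circles are replicate 1, squares replicate 2, and bars the mean ± SD (n = 2). Squares lie above circles in all 4 footprint groups, and the total RNA of the double modulation spans 27.5 to 99.9 CPM.

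LSM8 was the subunit that differed by guide in both assays. Its footprints were 22.4 and 29.7 CPM in the double modulation and 31.8 and 20.5 CPM in the knockdown alone, against 53.0 and 34.3 CPM in the overexpression alone and 59.2 and 54.5 CPM in the control. The 4 libraries with the tRNAIleGAU guide all lay below the 4 with the eGFP guide. The difference was -0.92 ± 0.22 (log2, SE, adjusted p = 0.00488, edgeR's quasi-likelihood test), a 1.89-fold lower value. LSM8 was the 1 of 8 members called by guide, lower, where 1.99% of 8143 genes were called lower and 2.68% in either direction. It was also the 1 member whose guides did not overlap, where 3.94% of genes did so in that direction. Without replicate 1 of the overexpression alone the call was lost (-0.78), and DESeq2 gave -0.93 with no adjusted p.

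In total RNA LSM8 had 65.4 and 81.0 CPM in the double modulation and 61.6 and 71.2 CPM in the knockdown alone, against 100.9 and 99.8 CPM in the overexpression alone and 109 and 111 CPM in the control. The guides again did not overlap, as in 5.33% of genes in that direction. The difference was -0.60 ± 0.10 (adjusted p = 0.035), and LSM8 was the 1 member called, lower, where 0.896% of 11720 genes were called lower and 1.08% in either direction. That call was lost in 6 of the 8 fits that left out 1 library, over which the difference ran from -0.69 to -0.50. In bulk samples, fewer cells with a given level and less RNA per cell cannot be told apart. Nor can the guide, its tRNA target and the cells it was introduced into be told apart, since they coincide.

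LSM8 (chr7:118184164-118204035) and LSM5 (chr7:32485338-32495283) are the members on chromosome 7, whose genes were lower as a whole with the tRNAIleGAU guide. Their median was -0.39 in footprints (371 genes, 342 lower and 84 called lower) and -0.37 in total RNA (553 genes, 516 lower and 80 called lower), against 0.02 and 0.03 for genes elsewhere. LSM8 lay below that chromosome's median in both assays, with 17 of the 371 genes lower in footprints and 66 of the 553 in total RNA.

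LSM5, a shared subunit, was nearer to 0. Its footprints were 28.8 and 29.7 CPM in the double modulation and 38.9 and 21.7 CPM in the knockdown alone, against 25.1 and 32.6 CPM in the overexpression alone and 46.1 and 41.3 CPM in the control. The guides overlapped, and the difference of -0.28 ± 0.24 did not pass (adjusted p = 0.66). In total RNA it was -0.17 ± 0.13 (0.712). On chromosome 7, 259 of 371 genes lay below LSM5 in footprints and 452 of 553 in total RNA.

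LSM1 and LSM8, the alternative subunits of the cytoplasmic and the nuclear ring, stood in different proportions under the guides in total RNA. The ratio of LSM1 counts to LSM8 counts in total RNA was 0.312 and 0.265 in the double modulation and 0.278 and 0.270 in the knockdown alone, against 0.199 and 0.184 in the overexpression alone and 0.157 and 0.174 in the control. The guides did not overlap, as was already so for LSM8 total RNA alone, and no share over other gene pairs was computed. Nearly all of that difference lay in LSM8, since LSM1 total RNA differed by 0.06 ± 0.14 by guide (adjusted p = 0.913). In footprints the ratio ran from 0.368 to 0.815 with the tRNAIleGAU guide and from 0.0526 to 0.55 with the eGFP guide, on 1 to 22 LSM1 counts per library, and the guides overlapped.

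**Figure D5:**
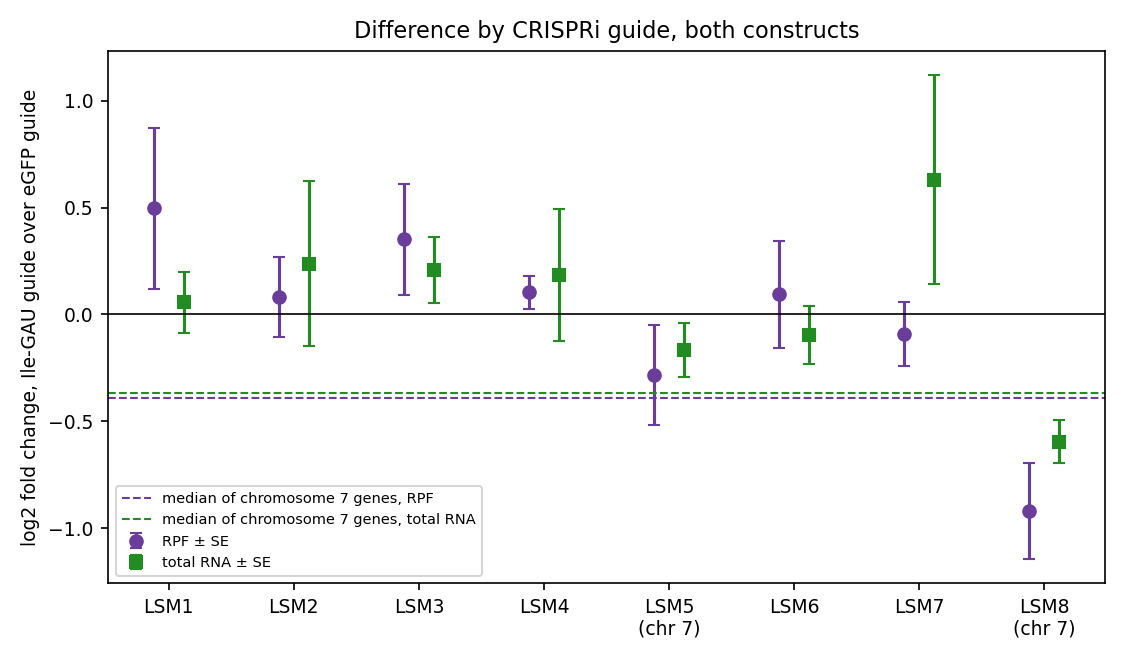
Log2 fold change of the tRNAIleGAU guide over the eGFP guide, averaged over both constructs, for each Lsm ring gene in footprints (circles) and total RNA (squares), with standard errors. Dashed lines give the median of all tested chromosome 7 genes, -0.39 in footprints and -0.37 in total RNA. LSM8 lies below both lines, at -0.92 and -0.60.

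The remaining subunits did not pass by guide. LSM1 footprints were 17.0 and 10.9 CPM in the double modulation and 25.9 and 12.1 CPM in the knockdown alone, against 2.79 and 18.9 CPM in the overexpression alone and 6.58 and 14.9 CPM in the control (0.50 ± 0.38, adjusted p = 0.615). LSM3, a shared subunit, had 18.8 to 39.9 CPM with the tRNAIleGAU guide and 21.4 to 27.4 CPM with the eGFP guide (0.35 ± 0.26, adjusted p = 0.6). LSM2, LSM6 and LSM7 differed by 0.08, 0.09 and -0.09 in footprints. In total RNA LSM7 differed by 0.63 ± 0.49 (adjusted p = 0.712), LSM2 by 0.24, LSM3 by 0.21 and LSM6 by -0.09. The LSM7 value came to 0.98 without replicate 2 of the double modulation and to -0.30 without its replicate 1. Over the 8 members the median difference by guide was 0.09 in footprints, against 0.01 over all genes, and 0.12 in total RNA, against 0.02.

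In the double modulation against the control, LSM8 footprints were again lower (-1.17 ± 0.30, adjusted p = 0.0117), the 1 of 8 members called, where 1.4% of all genes were called lower and 1.93% in either direction. That comparison shares its libraries with the one by guide. The call was lost without replicate 1 (-1.11) or replicate 2 (-1.23) of the control, and without replicate 1 of the double modulation (-0.94). It was also lost with all footprint libraries thinned to the total of the shallowest one (adjusted p = 0.11). LSM8 total RNA was at -0.59 ± 0.14 (adjusted p = 0.243) and LSM5 footprints at -0.60 ± 0.31 (0.429). No member of the 8 passed in the double modulation in total RNA, where 0.0683% of genes did, and 1 (LSM8) had an unadjusted p under 0.05, as did 7.62% of genes.

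By construct, 0 of the 8 members passed in footprints, where 0.43% of all genes did. LSM6, with -0.52 ± 0.25, was the 1 member with an unadjusted p under 0.05, as had 7.56% of genes (adjusted p = 0.614). In total RNA 0 members and 0% of 11720 genes passed by construct or in the interaction by edgeR, with 230 and 312 genes at an unadjusted p under 0.05, 0 and 1 of them members, and 5 and 0 genes by DESeq2. Translational efficiency is the footprint difference minus the total RNA difference of the same comparison. By guide, by construct and in the double modulation, 0 members and 0% of 8012 genes passed by edgeR, with 375, 237 and 332 genes at an unadjusted p under 0.05, 0 members among them, and 0, 1 and 0 genes by DESeq2. LSM4 was at -0.07 ± 0.36, -0.11 ± 0.36 and -0.19 ± 0.50 there, and LSM8 at -0.32 ± 0.24 by guide. Without replicate 2 of the double modulation's total RNA, LSM4 came to -0.76 in the double modulation and passed. Without replicate 1 it came to 0.98 and did not pass.

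The genes that work with the rings showed no calls. The 6 lists hold 82 genes, of which 70 were tested in footprints and 77 in total RNA: the Sm ring, other Lsm-domain proteins, decapping and 5′ decay factors such as DCP2 and XRN1, the CCR4-NOT and PAN deadenylases, U6 and tri-snRNP proteins such as PRPF8, and the SMN complex and its partners in snRNP assembly. By edgeR and by DESeq2, 0 of them passed in any of the 11 comparisons. At an unadjusted p under 0.05 there were 7 by guide, 3 by construct, 6 in the double modulation and 3 in the interaction in footprints, and 3, 1, 2 and 1 in total RNA. Over all genes the shares at that p were 13.4%, 7.56%, 11.9% and 5.83% in footprints and 10.5%, 1.96%, 7.62% and 2.66% in total RNA. The lowest adjusted p was 0.133 by guide in footprints and 0.102 by guide in total RNA. Median differences by guide in footprints were 0.09 for the Sm ring (5 tested), 0.14 for other Lsm-domain proteins (8), 0.10 for decapping (11), 0.09 for deadenylation (16), 0.04 for U6 and tri-snRNP proteins (23) and 0.14 for snRNP assembly (10), beside 0.01 for all genes.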

How the data were processed

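The authors deposited unnormalized read counts, 1 per gene symbol and library. HTSeq, STAR 2.5.2a, cutadapt 1.17 and build hg38 are named per the submitters' processing notes; settings and annotation are not given in the sources used here. Per the labels, ribosomes were pelleted through sucrose and RNA was extracted with Trizol. A gene missing from a footprint file was given a count of 0, and totals and tests leave out HTSeq's 5 summary lines. Genes were tested with edgeR 4.0.16 (quasi-likelihood test, TMM, filterByExpr with minimum count 10 and minimum total 15, group means) in R 4.3.3 on the 8 libraries of an assay, with 4 residual degrees of freedom. Translational efficiency came from 1 fit of all 16 libraries with 8. Adjustment was by Benjamini and Hochberg over all genes tested with a threshold of 0.05. The biological coefficient of variation was 6.71% in footprints and 14.3% in total RNA. Alternatives were DESeq2 1.42.0, limma 3.58.1, other scalings and filters, thinning, the replicate number as a block, and leaving out each library. Positions, neighbours and pseudogene names came from RefSeq tables of GRCh38.p14. The tests were tested on simulated data. Named were all 8 members, the 5 genes with the highest ratio, the 5 nearest to LSM4 and up to 4 called genes per list; the Sm and Lsm-domain genes given by ratio were chosen after their values were seen. The members and lists were chosen with earlier results of these data known. Levels per coding length were not analysed here.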

Additional observations from a re-analysis of the deposited data

Results flagged for a closer look

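The construct's mean difference in LSM4 footprints was opposite under the 2 guides, lower with the tRNAIleGAU guide (-0.45, log2) and higher with the eGFP guide (0.39). With the tRNAIleGAU guide the libraries of the 2 constructs overlapped. The difference between these differences was tested (-0.80, adjusted p = 0.0023 by edgeR's quasi-likelihood test). Within-group SD on the log2 scale was 0.31, against a median of 0.0931 for genes of at least 1000 CPM, and its part in the call was not tested beyond the alternatives given. An exact two-sided permutation test of LSM4 alone gave p = 0.111.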

How the results depend on the processing

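Counts of genes past the threshold depended on the tool and the depth. In footprints they were 218 by guide (69 by DESeq2, 143 with libraries thinned to the shallowest), 35 by construct (18 and 15), 157 in the double modulation (48 and 71) and 5 in the interaction (0 and 2). In total RNA they were 126 by guide (486 with no filter on low counts), 0 by construct (5 by DESeq2, 11 with no filter), 8 in the double modulation (54 by DESeq2, 185 with no filter) and 0 in the interaction (40 with no filter). In translational efficiency by construct DESeq2 called 1 gene. In edgeR the LSM4 footprint interaction of -0.80 kept its sign and passed with RLE scaling in place of TMM, with no filter and with thinning. It also passed by limma's voom (-0.89, adjusted p = 2.77e-05), which was added after seeing the data. It did not pass by DESeq2 (-0.80) or by edgeR with robust estimation (-0.80), which was also added after seeing the data. Whether the replicate numbers pair the samples is not stated in the labels. Deviations from the group means correlated between groups at -0.04 to 0.06 in footprints and -0.42 to 0.36 in total RNA. These values cannot decide it. With the replicate number as a block, the counts were 53 by guide and 1 in the double modulation in total RNA, 8 in the footprint interaction, and LSM4's interaction was -0.83 (adjusted p = 7.09e-06).

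Leaving out 1 library gave 123 to 215 genes by guide, 7 to 55 by construct, 35 to 173 in the double modulation and 0 to 10 in the interaction in footprints. It gave 6 to 1820, 0 to 150, 0 to 1854 and 0 to 520 in total RNA, and 0 to 436, 0 to 49 and 0 to 613 by guide, by construct and in the double modulation in translational efficiency. LSM4 ran from -0.11 to 0.27 by guide, -0.23 to 0.15 by construct, -0.34 to 0.42 in the double modulation and -1.22 to -0.47 in the interaction in footprints. In total RNA it ran from -0.42 to 0.48, -0.49 to 0.41, -0.90 to 0.88 and -0.79 to 1.00, and in translational efficiency from -0.36 to 0.52, -0.40 to 0.46 and -0.76 to 0.98. By guide, LSM2 ran from -0.15 to 0.28 in footprints and -0.48 to 0.54 in total RNA, LSM7 from -0.28 to 0.060 and -0.30 to 0.98, and LSM6 footprints from -0.20 to 0.61. LSM5 ran from -0.22 to 0.00076 in the total RNA of the double modulation and -0.35 to 0.085 in translational efficiency by guide. LSM8 kept its sign throughout, at -1.10 to -0.78 in footprints and -0.69 to -0.50 in total RNA by guide. Where a call or sign changed, the cause was not tested. LSM4's log2 ratio stayed between 5.63 and 6.12. Levels per coding length were not run. Footprints of the members other than LSM4 rest on at most 86 counts per library, which limits what could be detected for them.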
